A study of Mus musculus with 2 samples.

Results

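The genes of 10 matrix proteoglycans, chosen by symbol among the 32285 genes of the count matrices, were followed across the cell classes of the spinal cord of mice at postnatal day 4 (P4). They fell into 5 leucine-rich proteoglycans (Dcn, Bgn, Lum, Ogn and Aspn) and 5 chondroitin sulphate proteoglycans (Vcan, Bcan, Ncan, Cspg4 and Cspg5). All 10 were detected in both libraries.

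A proteoglycan is a core protein that carries long sulphated sugar chains. The leucine-rich members are small proteins of fibrous connective tissue, where decorin, lumican and their relatives bind collagen and set the spacing and thickness of its fibrils. Dcn and Bgn carry chondroitin or dermatan sulphate chains, Lum and Ogn carry keratan sulphate in some tissues, and Aspn is a relative of both that lacks the usual attachment site for such a chain. The lecticans Vcan, Bcan and Ncan bind hyaluronan and tenascins and form the loose matrix between the cells of the central nervous system, including the nets around neurons. Cspg4, known as NG2, and Cspg5, known as neuroglycan C, span the cell membrane, and NG2 is the classic surface marker of oligodendrocyte precursors and pericytes.

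Single-cell RNA-seq was performed on whole spinal cords, and each group had 1 library. Loss of the survival of motor neuron (SMN) protein causes spinal muscular atrophy (SMA). The SMA animals belonged to the Taiwanese model, a severe one, on the FVB strain, without intact mouse Smn1 and hemizygous for the human SMN2 transgene, and the Con mice were heterozygous for mouse Smn1 with the same transgene, so both groups carried human SMN2 and neither was wild type. Per the study's methods each library pooled the cords of littermates, and the sexes of the animals were not stated. With 1 library per group no difference between SMA and Con could be tested, and all intervals below are 95% intervals for the error of counting alone. The names SMA and Con, and each direction, rest on the labels of the libraries.

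In SMA 85872075 UMIs (unique molecular identifiers, each a tag of 1 captured RNA molecule) were counted in 26921 barcodes, and in Con 97894084 UMIs in 25419 barcodes. The libraries shared 8163 barcodes. Those shared barcodes were left out of SMA, which left 6787 SMA cells with a median of 6109 UMIs and 8917 Con cells with a median of 6229 UMIs. Of the kept Con cells with at least 5000 UMIs, 98.8% carried a barcode that was also listed in SMA, against 2.95% of such SMA cells. Smn1 stood at 48.1 CPM (UMIs scaled to a common total of a class or library) in SMA and 43.8 CPM in Con, while Xist, transcribed from the inactive X chromosome, stood at 1.51 CPM in SMA and 528 CPM in Con. The counts are not resolved by exon, so the Smn1 level did not check the labelled genotypes.

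The cells were clustered and the clusters named by markers, which gave 13 classes written with "-like". Of these, 11 were compared, each with 50 or more cells per library. Levels are CPM of the UMIs summed over the cells of a class, and differences are log2 ratios of SMA over Con. One UMI stands for 1 molecule counted near its 3′ end, so no value was scaled by gene length, and levels were compared between classes and libraries for the same gene, not between genes.

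All 10 genes are protein-coding, with positions on GRCm38. Dcn (chr10:97479609-97518143, plus strand) and Lum (chr10:97565128-97572703, plus strand) are neighbours separated by 46984 bases. Aspn (chr13:49544443-49567565, plus strand) and Ogn (chr13:49608046-49624501, plus strand) lie in another run of leucine-rich proteoglycan genes, 40480 bases apart with Omd between them and Ecm2 on the far side of Aspn. Bgn lies on the X chromosome (chrX:73483602-73495933, plus strand). The 3 lectican genes each lie beside a link protein gene, Vcan (chr13:89655312-89742509, minus strand) beside Hapln1, Bcan (chr3:87987531-88000230, minus strand) beside Hapln2 and Ncan (chr8:70093085-70120873, minus strand) beside Hapln4. Cspg4 (chr9:56865033-56899870, plus strand) and Cspg5 (chr9:110243783-110262576, plus strand) are on the same chromosome.

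Upstream windows of 250 bases were found in RefSeq (GRCm38.p6) for 7 of the 10 members. Those of Bgn, Aspn, Ogn and Bcan are shown because their genes marked different compartments: Bgn the fibroblasts, vessel wall and astrocytes, Aspn and Ogn 2 genes of 1 chromosomal run with different second classes, mural-like and Schwann-like cells, and Bcan the glia. Each window is given 5′ to 3′ on the gene's own strand and ends at the base before the start site. Capitals mark, on either strand, the TATA-box core TATAAA, the CAAT-box core CCAAT or the GC-box core GGGCGG, and overlapping matches run together.
Bgn, chrX:73483351-73483600, plus strand: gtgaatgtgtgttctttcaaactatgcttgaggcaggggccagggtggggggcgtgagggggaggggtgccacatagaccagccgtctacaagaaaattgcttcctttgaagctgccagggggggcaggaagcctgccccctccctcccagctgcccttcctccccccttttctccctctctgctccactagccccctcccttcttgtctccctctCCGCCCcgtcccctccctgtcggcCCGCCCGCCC
Aspn, chr13:49544193-49544442, plus strand: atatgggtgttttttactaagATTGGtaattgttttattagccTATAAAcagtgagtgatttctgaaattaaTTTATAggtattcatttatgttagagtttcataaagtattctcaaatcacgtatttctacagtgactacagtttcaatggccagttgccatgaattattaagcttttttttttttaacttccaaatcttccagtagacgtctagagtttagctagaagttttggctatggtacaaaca
Ogn, chr13:49607765-49608014, plus strand: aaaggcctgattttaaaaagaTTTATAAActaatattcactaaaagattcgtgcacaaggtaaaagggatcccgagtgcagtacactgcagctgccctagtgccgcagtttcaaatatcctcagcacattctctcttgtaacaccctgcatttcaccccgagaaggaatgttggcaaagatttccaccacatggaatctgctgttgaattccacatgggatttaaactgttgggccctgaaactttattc
Bcan, chr3:88000357-88000606, minus strand: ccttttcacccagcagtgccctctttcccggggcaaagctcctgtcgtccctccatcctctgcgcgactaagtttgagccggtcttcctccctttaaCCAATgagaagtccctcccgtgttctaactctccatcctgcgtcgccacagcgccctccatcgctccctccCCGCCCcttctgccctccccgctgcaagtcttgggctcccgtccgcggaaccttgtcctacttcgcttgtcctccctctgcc

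The Bgn window held 64.4% G and C and 3 matches to GGGCGG, at 34, 10 and 6 bases before the start. The Aspn window, on chromosome 13, held 30% G and C, matches to TATAAA at 207 and 178 bases and 1 match to CCAAT at 229 bases before the start. The Ogn window held 42% G and C and 2 overlapping matches to TATAAA at 229 and 227 bases. The Bcan window held 62% G and C, with CCAAT at 153 and GGGCGG at 82 bases before the start. Over 32851 windows of the same length, 12.4% held the TATA-box core, 33.8% the CAAT-box core and 32.7% the GC-box core, with a median of 52.4% G and C. The E-box CACGTG (6.02% of all windows), the AP-1 letters TGANTCA (6.75%) and the Sox-type letters ACAAAG (16.5%), searched on both strands, were not in these 4 windows. A match is a match of letters alone, and binding was not measured.

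The members divided the cord between them. In Con all 5 leucine-rich genes were highest in the fibroblast-like cells. Ncan and Bcan were highest in astrocyte-like cells and Cspg5 in oligodendrocyte precursor (OPC)-like cells. Cspg4 was at 179 CPM in OPC-like and 167 CPM in mural-like Con cells, with overlapping intervals. For Aspn and Ogn the first place of the fibroblasts rested on sub-clusters found almost only in Con, described below. Without them Aspn was higher in Con mural-like cells (118 CPM) and Ogn in Con Schwann-like cells (136 CPM) than in the fibroblasts. Of all UMIs of a gene in named Con cells, the fibroblast-like cells, those sub-clusters included, held 97.5% for Dcn, 97.4% for Lum, 77.0% for Aspn, 71.6% for Bgn and 63.8% for Ogn. In SMA they held 70.7% for Dcn, 81.8% for Lum, 1.52% for Aspn, 31.0% for Bgn and 40.9% for Ogn. There the mural-like cells held 90.9% of the Aspn UMIs and the Schwann-like cells 51.8% of the Ogn UMIs. The astrocyte-like cells held 73.7% of the Ncan UMIs and 41.5% of the Bcan UMIs in Con, and the OPC-like cells held 72.9% of the Cspg4 and 63.4% of the Cspg5 UMIs. Vcan had no single home: in Con its level was 166 CPM in committed oligodendrocyte precursor (COP)-like, 149 CPM in fibroblast-like and 144 CPM in OPC-like cells, and the intervals of neighbours in that order overlapped.

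**Figure D1:**
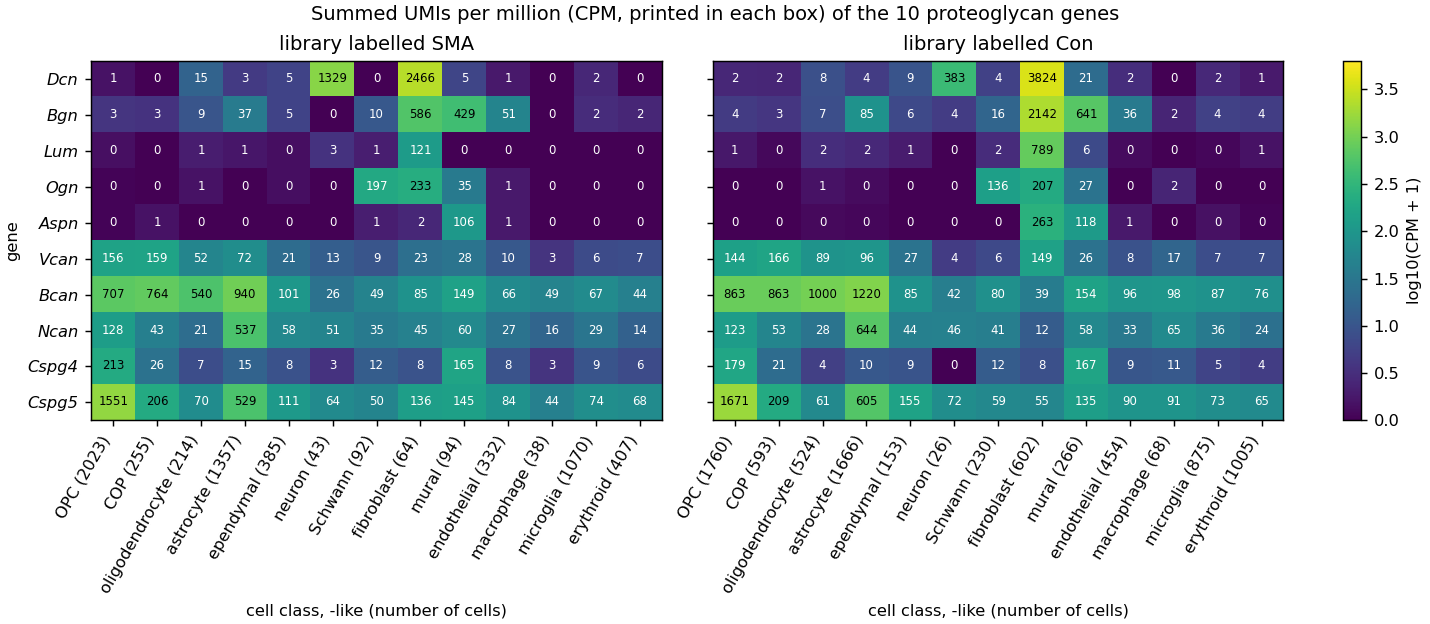
Level of each of the 10 members in each cell class, with SMA and Con in separate panels. Colour is log10(CPM + 1) and the number in each box is CPM. The leucine-rich genes fill the fibroblast-like column and the chondroitin sulphate genes stand highest in the OPC-like, COP-like or astrocyte-like columns, with Bcan also at 540 and 1000 CPM in oligodendrocyte-like cells, while Aspn stands at 263 CPM in Con fibroblast-like cells against 1.67 CPM in SMA.

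Several leucine-rich genes had a further class of their own. Aspn was at 106 CPM in SMA and 118 CPM in Con mural-like cells, which cover pericytes and smooth muscle, and it was at or under 1.12 CPM in every other class of SMA outside the fibroblasts. Ogn was at 197 CPM in SMA and 136 CPM in Con Schwann-like cells, which wrap the axons of the nerve roots. Bgn was found in mural-like and astrocyte-like cells, whose values are given below. Dcn and Lum had no such second glial or vascular class, with Dcn at most 20.7 CPM and Lum at most 6.16 CPM in any of the compared classes other than the fibroblasts. The 37 Dcn UMIs of Con mural-like cells lay in 1.13% of those cells.

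The chondroitin sulphate genes were also counted at low levels in cells not known to make them. In erythroid-like cells, with medians of 9689 UMIs in SMA and 9715 in Con, Bcan stood at 44.4 CPM in SMA and 76.0 CPM in Con, Ncan at 13.9 and 24.1 CPM and Cspg5 at 67.6 and 65.2 CPM. Microglia-like cells held Bcan at 67.0 CPM in SMA and 86.8 CPM in Con. These levels are read as background, and a level near them in another class is not read as expression. Dcn in erythroid-like cells had 0 UMIs in SMA, where the 3 counts taken as the limit for a count of 0 come to 0.775 CPM, and stood at 0.854 CPM in Con, so Dcn carried almost no such background.

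Over the 11 classes, 52 pairs of member and class had at least 100 UMIs over both libraries, and 5 of these were 2-fold or more lower in SMA while 2 were 2-fold or more higher. Over all genes with as many UMIs, 1.28% of pairs of gene and class were 2-fold or more lower and 0.915% 2-fold or more higher. The 5 lower pairs were Bgn, Lum, Aspn and Vcan in fibroblast-like cells and Bgn in astrocyte-like cells, and the 2 higher pairs were Bcan and Cspg5 in fibroblast-like cells, whose Con levels lay below and SMA levels above those of erythroid-like cells. Lum, Aspn and Vcan had under 100 UMIs in SMA fibroblast-like cells and passed the minimum through Con, where they were high, so the count of lower pairs supports nothing by itself. The fibroblast-like class thus held 6 of the 7 pairs, and in that class such differences were common over all genes: 12.6% were 2-fold or more lower and 4.72% 2-fold or more higher. In the OPC-like, COP-like, oligodendrocyte-like, mural-like, Schwann-like, endothelial-like, ependymal-like, microglia-like and erythroid-like cells, no member with 100 UMIs differed by as much as 2-fold.

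The fibroblast-like cells were made up differently in the libraries. There were 64 such cells in SMA and 602 in Con. All 10 fibroblast markers were detected in each library, with a summed level of 9572 CPM in SMA and 25635 CPM in Con. Of these, 8 were lower in SMA, such as the fibrillar collagen genes Col1a2 at 2225 and 7907 CPM and Col3a1 at 1612 and 6919 CPM. The transporter gene Slc6a13, at 1314 and 440 CPM, and the transcription factor gene Foxc1, at 104 and 47.2 CPM, were higher. Without the Con-only cells defined next, the summed level was 9576 CPM in SMA and 21065 CPM in Con, with the same 2 genes higher in SMA. Erythroid markers in the fibroblast-like cells went with the libraries as well. They were summed at 444 CPM in SMA (5 of 7 detected) and 19669 CPM in Con (7 of 7), and at 448 and 25864 CPM without the Con-only cells. The part of these marker levels in the results on single members was not tested. The class was formed by 1 cluster led by Mfap5, Timp1 and Pi16 with 2 SMA and 433 Con cells, and another led by Mfap4, Slc6a13 and A2m with 62 SMA and 169 Con cells. Clustered again on their own, the cells fell into 7 sub-clusters, 3 of which held 389 Con cells and 1 SMA cell and are called Con-only here. These Con-only cells had a median of 2738 UMIs and a mitochondrial share of 2.12%, against 7822 UMIs and 5.99% in the other Con fibroblast-like cells. Of Con-only cells with at least 5000 UMIs, 2.08% carried a barcode that was also listed in SMA, against 87.9% of the other Con fibroblast-like cells of that depth. The fibroblast results are therefore given with and without the Con-only cells, and the part of the origin of these cells in them was not tested. The set without them still held a sub-cluster led by Ube2c and Birc5, with 4 SMA and 43 Con cells. Its Con cells had a mitochondrial share of 2.02%. Of those with at least 5000 UMIs, 31.0% carried a barcode also listed in SMA. Whether these cells share the origin of the Con-only cells was not tested. Whether the Con-only cells belong to the Con sample cannot be told from these files, and the Con levels over the whole class, with every ratio to them, rest on that.

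Dcn, decorin, the best known of the small collagen-binding proteoglycans, had 1473 UMIs in SMA and 10702 in Con. Its level was 2466 CPM in SMA (2342 to 2595) and 3824 CPM in Con (3752 to 3897), a log2 ratio of −0.63 (−0.71 to −0.55). Without the Con-only cells it stood at 2477 and 4092 CPM, a log2 ratio of −0.72 (−0.81 to −0.64). Dcn was thus lower in SMA on both sets of cells, by less than 2-fold.

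Bgn, which like Dcn binds growth factors of the TGF-beta family, had 350 UMIs in SMA and 5994 in Con. Its level was 586 CPM (526 to 651) in SMA and 2142 CPM (2088 to 2196) in Con, a log2 ratio of −1.87 (−2.03 to −1.71). Without the Con-only cells the log2 ratio of Bgn was −1.65 (−1.81 to −1.49), and over cells of at least 5000 UMIs it was −1.64. With the shared SMA barcodes kept in, which gave 217 SMA cells, it was −1.19 (−1.30 to −1.09). The interval of the Bgn ratio lay below 0 on each of these sets.

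Lum, a regulator of collagen fibrils next to Dcn on chromosome 10, had 72 UMIs in SMA and 2207 in Con. It stood at 121 CPM (94.3 to 152) in SMA and 789 CPM (756 to 822) in Con, a log2 ratio of −2.71 (−3.07 to −2.37). Without the Con-only cells it stood at 122 and 915 CPM, a log2 ratio of −2.91 (−3.27 to −2.57). With each cell thinned to 1000 UMIs, 9.38% of SMA cells (3.52 to 19.3) and 44.2% of Con cells (40.0 to 48.4) held a Lum UMI, after leaving out 43 Con cells that were too shallow. Unthinned, the shares were 32.8% and 68.6%, at median depths of 8734 and 3481 UMIs, against 0 of 407 SMA and 0.498% of Con erythroid-like cells. The difference in Lum was thus as large without the Con-only cells and was also found after thinning. It was smaller with the shared SMA barcodes kept in, where Lum stood at 348 CPM in SMA and the log2 ratio was −1.18 (−1.36 to −1.01).

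Aspn, which can bind TGF-beta and collagen, had 1 UMI in SMA and 735 UMIs in Con, or 1.67 CPM (0.04 to 9.33) against 263 CPM (244 to 282). The log2 ratio of Aspn was −7.29 (−12.60 to −4.81). On leaving out the Con-only cells it had 1 UMI in SMA and 88 in Con, which gave 1.69 CPM in SMA and 53.5 CPM in Con (log2 ratio −4.98, −10.30 to −2.47), and it no longer passed the minimum of 100 UMIs. Most of its Con UMIs lay in Con-only cells, where the sub-cluster led by C1qtnf3 and Tagln stood at 1062 CPM and the one led by Ly6c1 and Pi16 at 440 CPM. In the sub-cluster led by Hbb-bs and Apod, which held 47 SMA and 108 Con cells with 0.0345% and 4.64% of UMIs from haemoglobin genes, Aspn had 1 UMI in SMA and 11 in Con. Over the Con fibroblast-like cells whose barcodes were shared, a set chosen after seeing the data, Aspn had 1 UMI in SMA and 7 in Con, a log2 ratio of −1.54 (−7.04 to 1.42), so on that set no difference in Aspn was detectable at this depth.

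Ogn, osteoglycin, was the exception among the leucine-rich genes. It had 139 UMIs in SMA and 579 in Con and stood at 233 CPM (196 to 275) in SMA and 207 CPM (190 to 224) in Con, a log2 ratio of 0.17 (−0.11 to 0.44). Without the Con-only cells, Ogn stood at 232 CPM in SMA and 90.0 CPM in Con, a log2 ratio of 1.37 (1.02 to 1.71). Within the cluster led by Mfap4, it stood at 228 CPM in SMA and 57.6 CPM in Con, a log2 ratio of 1.99 (1.58 to 2.40). In the sub-cluster led by Hbb-bs and Apod, Ogn had 102 UMIs in SMA and 18 in Con, or 239 and 21.5 CPM. In the Con-only sub-cluster led by Ly6c1 and Pi16 it stood at 547 CPM. With the shared SMA barcodes kept in, the log2 ratio of Ogn was −0.25 (−0.52 to 0.02), and with each cell weighted equally it was −0.69. The direction of Ogn in the fibroblast-like cells thus depended on which cells were taken and how they were weighted.

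Vcan, the lectican of connective tissue and of migrating neural crest, had 14 UMIs in SMA and 416 in Con. It stood at 23.4 CPM (12.8 to 39.3) in SMA and 149 CPM (135 to 164) in Con, a log2 ratio of −2.66 (−3.55 to −1.90). Without the Con-only cells the log2 ratio of Vcan was −2.07 (−2.98 to −1.29), and in the sub-cluster led by Hbb-bs and Apod it had 3 UMIs in SMA and 105 in Con. With the shared SMA barcodes kept in, the log2 ratio of Vcan was −1.67 (−2.17 to −1.20).

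**Figure D2:**
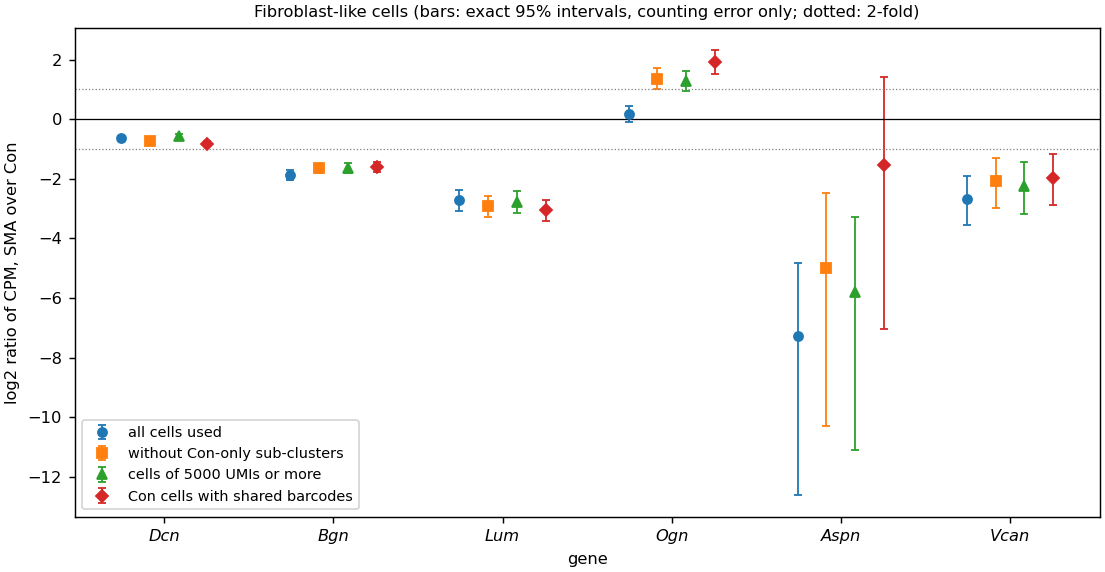
Log2 ratio of SMA over Con CPM in fibroblast-like cells for Dcn, Bgn, Lum, Ogn, Aspn and Vcan under 4 choices of cells, with 95% intervals for counting error, dotted lines at 2-fold. Dcn, Bgn, Lum and Vcan lie below 0 under each choice, Ogn goes from 0.17 over all cells to 1.37 without the Con-only cells, and the interval of Aspn reaches 1.42 over Con cells with shared barcodes.

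The sub-clusters differed among themselves within Con as well. Bgn was at 4908 CPM in the sub-cluster led by C1qtnf3 and Tagln, against 1576 to 2288 CPM in the other Con sub-clusters apart from the one of 13 cells. Lum was at 69.0 CPM in the sub-cluster led by Serpinb2 and Inhba, while it was at 1128 CPM in the one led by Hbb-bs and Apod. Dcn ran from 1159 CPM in the Serpinb2 sub-cluster to 5517 CPM in the Ly6c1 sub-cluster. All 5 leucine-rich genes were found together in 0 of 64 SMA cells, in 9 of 213 Con cells outside the Con-only sub-clusters and in 91 of 389 Con-only cells, and the median number of these genes per cell was 3, 3 and 4.

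**Figure D3:**
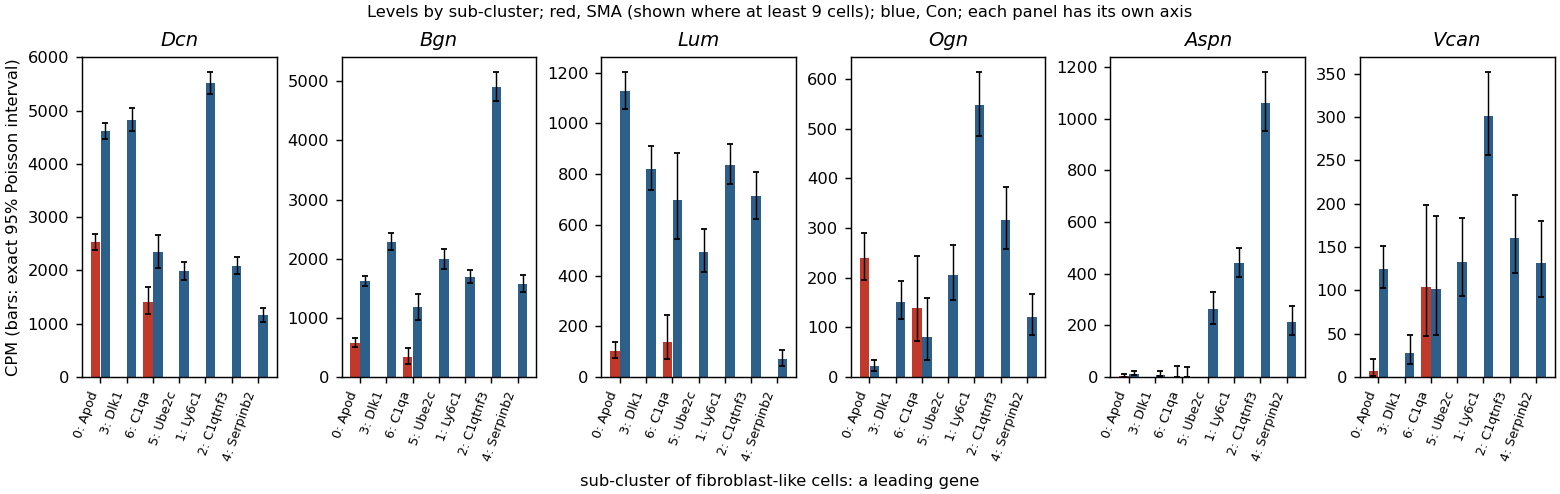
Level in CPM of Dcn, Bgn, Lum, Ogn, Aspn and Vcan in the 7 sub-clusters of fibroblast-like cells, blue for Con and red for SMA, with SMA drawn where a sub-cluster held at least 9 SMA cells and each panel on its own axis from 0. Lum stands at 1128 CPM in Con and 103 CPM in SMA in the Hbb-bs and Apod sub-cluster, where Ogn stands at 21.5 and 239 CPM.

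Among the glial chondroitin sulphate genes in the same cells, Bcan had 51 UMIs in SMA and 108 in Con, or 85.4 against 38.6 CPM, a log2 ratio of 1.15 (0.64 to 1.64). Cspg5 stood at 136 CPM in SMA and 55.4 CPM in Con, a log2 ratio of 1.29 (0.89 to 1.69). The erythroid-like background was 44.4 and 76.0 CPM for Bcan and 67.6 and 65.2 CPM for Cspg5, so both Con levels lay below it and both SMA levels above it. The Con levels are not read as expression by fibroblasts, and whether the SMA levels are was not tested. Of the Bcan UMIs, 35 in SMA and 50 in Con lay in a sub-cluster of 9 SMA and 13 Con cells led by genes of microglia and oligodendrocyte precursors, C1qa and Olig1 among them. The summed level of astrocyte markers in the fibroblast-like cells was likewise higher in SMA, at 1957 against 804 CPM. Their part in the Bcan and Cspg5 levels was not tested, and without the Con-only cells neither gene was 2-fold or more higher. There Bcan stood at 84.6 and 62.6 CPM, a log2 ratio of 0.43 (−0.08 to 0.94), and Cspg5 at 135 and 92.4 CPM, a log2 ratio of 0.55 (0.14 to 0.95). On that set of cells, 6.18% of all genes were 2-fold or more lower in SMA and 2.61% 2-fold or more higher. Over all 11 classes, the members then had 4 pairs 2-fold or more lower and 1 higher, Ogn in fibroblast-like cells, of 51 pairs counted.

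Over whole classes, Bgn in astrocyte-like cells was the 1 member past 2-fold outside the fibroblasts. It had 313 UMIs in 1357 SMA cells and 923 UMIs in 1666 Con cells, or 36.5 CPM (32.6 to 40.8) against 84.9 CPM (79.5 to 90.6), a log2 ratio of −1.22 (−1.41 to −1.03). In this class 0.441% of all genes were 2-fold or more lower in SMA and 0.412% 2-fold or more higher. The lower level was found in each of the 4 astrocyte clusters. Bgn stood at 31.9 and 62.3 CPM in the large cluster led by Slc6a11 (log2 ratio −0.97, −1.21 to −0.72), at 30.1 and 74.3 CPM in the cycling cluster led by Pbk (−1.30, −1.82 to −0.81) and at 128 and 237 CPM in the cluster led by Cidea and Gfap (−0.89, −1.29 to −0.50). The cluster led by Slc7a10 had 7 UMIs in SMA and 21 in Con.

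The astrocyte cluster led by Cidea and Gfap, an intermediate filament of fibrous and reactive astrocytes, thus held the highest Bgn level of the 4 in both libraries. It made up 54 of the SMA and 128 of the Con astrocyte-like cells. Leaving out shared barcodes removed 123 SMA cells from this cluster, 79 from the Slc6a11, 189 from the Pbk and 1007 from the Slc7a10 cluster. The make-up of the SMA class, and with it the Bgn ratio over the class, thus depends on that step. Over astrocyte-like cells of at least 5000 UMIs the log2 ratio of Bgn was −1.23, and over Con cells with shared barcodes it was −1.27. With the shared SMA barcodes kept in, the log2 ratio of Bgn was −0.90, short of 2-fold. With each cell thinned to 1000 UMIs, 3.32% of SMA and 6.82% of Con astrocyte-like cells held a Bgn UMI, against 0.246% and 0.301% of erythroid-like cells, and the median depths of the astrocyte-like cells were 5850 and 5995 UMIs. Unthinned, 15.6% and 28.5% held one. Bgn is X-linked, and Xist was at 1.28 CPM in SMA and 697 CPM in Con astrocyte-like cells. A difference in the sex of the pooled animals and one in genotype cannot be told apart in these libraries.

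In the vessel wall Bgn was also lower in SMA, by less than 2-fold. With 242 UMIs in SMA and 1146 in Con mural-like cells, Bgn was at 429 CPM in SMA (376 to 486) and at 641 CPM in Con (605 to 680). The log2 ratio was −0.58 (−0.79 to −0.38). In endothelial-like cells it stood the other way, at 50.9 CPM (42.4 to 60.5) in SMA and 35.6 CPM (29.7 to 42.2) in Con, a log2 ratio of 0.52 (0.15 to 0.88). Bgn was also lower in SMA in erythroid-like cells (6 and 36 UMIs, 1.55 against 3.84 CPM, log2 ratio −1.31, −2.85 to −0.05) and in microglia-like cells (2.05 against 4.49 CPM, −1.13, −2.11 to −0.20). The level there was far below that of the astrocyte-like cells, and its part in their ratio was not tested. Of the classes named here, the endothelial-like cells alone had Bgn higher in SMA, and whether these differences exceed the spread between animals was not tested.

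**Figure D4:**
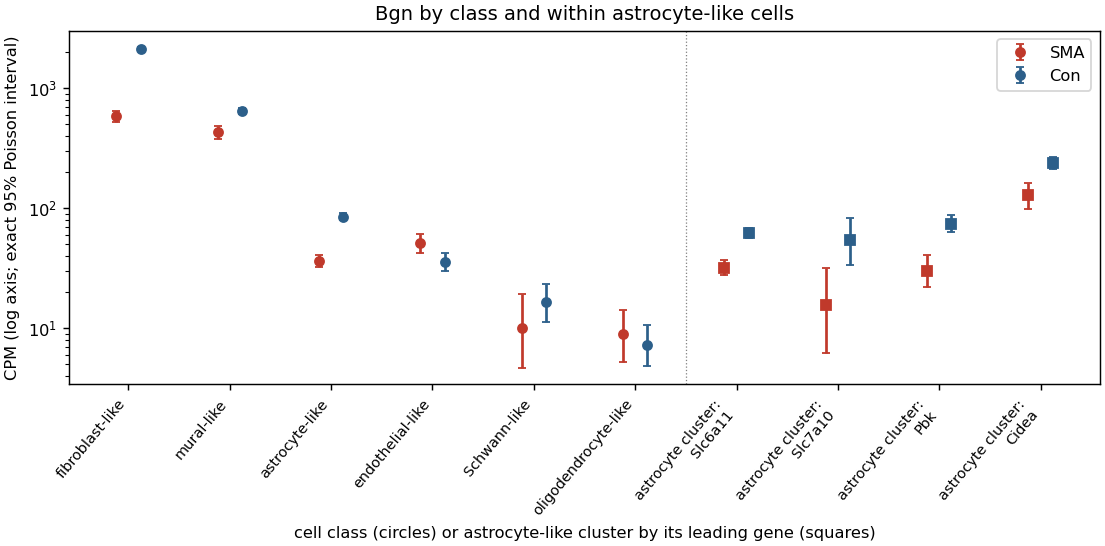
Level of Bgn in CPM on a log axis by cell class (circles) and in the 4 astrocyte clusters (squares), red for SMA and blue for Con, with exact 95% Poisson intervals. SMA lies below Con in the fibroblast-like, mural-like and astrocyte-like cells and in each astrocyte cluster, and above it in the endothelial-like cells, at 50.9 against 35.6 CPM.

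Aspn in the vessel wall was close between libraries, and Ogn in the nerve was higher in SMA. In mural-like cells Aspn had 60 UMIs in SMA and 210 in Con, a log2 ratio of −0.15 (−0.58 to 0.27). The low Aspn level of SMA fibroblast-like cells was thus not seen in the mural-like cells of either library. Aspn was also scarce in the Con fibroblast-like cells with shared barcodes, where the interval of its ratio included 0. Ogn in mural-like cells had 20 UMIs in SMA and 49 in Con, a log2 ratio of 0.37 (−0.46 to 1.15). Dcn had 3 UMIs in SMA and 37 in Con mural-like cells, a log2 ratio of −1.96 (−4.30 to −0.30), and Lum 0 and 11 UMIs. In Schwann-like cells Dcn had 0 UMIs in SMA and 9 in Con. In Schwann-like cells Ogn had 176 UMIs in SMA and 274 in Con, a log2 ratio of 0.53 (0.25 to 0.81). At 1000 UMIs per cell, 19.6% of SMA and 6.61% of Con Schwann-like cells held an Ogn UMI, and 45.7% and 27.4% did before thinning, at median depths of 9408 and 8440 UMIs. In erythroid-like cells the thinned share was 0% in both, with exact two-sided upper limits of 0.904% and 0.369%.

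Bcan, the lectican of the central nervous system known as brevican, was lower in SMA in astrocyte-like, OPC-like, COP-like and oligodendrocyte-like cells. In astrocyte-like cells it had 8055 UMIs in SMA and 13262 in Con, or 940 CPM (920 to 961) against 1220 CPM (1200 to 1241), a log2 ratio of −0.38 (−0.42 to −0.34). In OPC-like cells it stood at 707 and 863 CPM (−0.29, −0.33 to −0.25) and in COP-like cells at 764 and 863 CPM (−0.18, −0.26 to −0.09). In oligodendrocyte-like cells Bcan stood at 540 CPM in SMA and 1000 CPM in Con, a log2 ratio of −0.89 (−0.99 to −0.79). These differences were under 2-fold, and Bcan was also lower in SMA in the background read in erythroid-like cells, with a log2 ratio of −0.78 (−1.02 to −0.53). That background stood at 44.4 against 76.0 CPM, and the part of free RNA in the glial differences was not tested.

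The oligodendrocyte-like cells held a younger cluster led by Enpp6, an enzyme of newly formed oligodendrocytes, with 97 SMA and 278 Con cells, and a myelinating cluster led by Mog, with 117 SMA and 246 Con cells. The Mog cluster was shallow, with medians of 2620 UMIs in SMA and 1390 in Con, against 11911 and 11488 in the Enpp6 cluster. Haemoglobin genes gave 7.52% and 12.6% of the UMIs of the Mog cluster. Bcan was lower in the Mog than in the Enpp6 cluster in both libraries, at 113 against 798 CPM in SMA and 234 against 1173 CPM in Con. Within the Enpp6 cluster the log2 ratio of Bcan was −0.56 (−0.66 to −0.45), and within the Mog cluster, whose Bcan level is nearer to the background, it was −1.06 (−1.46 to −0.66). In oligodendrocyte-like cells as a whole, Cspg4 (6.80 and 4.31 CPM) and Ncan (21.5 and 28.0 CPM) stood near the erythroid-like levels. Cspg5 (69.6 and 60.9 CPM) was an average of clusters below and above that level, given below. Leaving out shared barcodes removed 400 SMA cells from the Enpp6 cluster and 230 from the Mog cluster, so the make-up of the SMA class depends on that step.

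Ncan, the lectican known as neurocan, was the astrocyte member of the set. It stood at 537 CPM (522 to 553) in SMA and 644 CPM (629 to 659) in Con astrocyte-like cells, a log2 ratio of −0.26 (−0.32 to −0.21). Ncan in OPC-like cells stood at 128 and 123 CPM, with a log2 ratio of 0.05 (−0.06 to 0.16), and in COP-like cells at 42.8 and 53.4 CPM, where the interval of the ratio included 0. In the Enpp6 cluster it had 9 UMIs in SMA and 57 in Con.

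Cspg5, a membrane proteoglycan of growing neurites and glia, was highest in OPC-like cells. It stood at 1551 CPM (1528 to 1573) in SMA and 1671 CPM (1646 to 1697) in Con OPC-like cells, a log2 ratio of −0.11 (−0.14 to −0.08). Along the lineage it went from those levels to 206 and 209 CPM in COP-like cells and to 20.2 and 41.9 CPM in the Enpp6 cluster. Cspg5 stood at 151 and 145 CPM in the Mog cluster. The cells of that cluster were shallow, with medians of 2620 and 1390 UMIs against 9689 and 9715 in the erythroid-like cells. The part of free RNA in that Cspg5 level was not tested. In astrocyte-like cells Cspg5 stood at 529 and 605 CPM, a log2 ratio of −0.19 (−0.25 to −0.14), and in cycling astrocyte-like cells it stood at 707 and 686 CPM.

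Cspg4 marked OPC-like and mural-like cells and stood higher in SMA in OPC-like and astrocyte-like cells. In OPC-like cells it had 2470 UMIs in SMA and 1834 in Con, or 213 CPM (204 to 221) against 179 CPM (171 to 188), a log2 ratio of 0.25 (0.16 to 0.33). That of Cspg4 was 0.33 (0.21 to 0.45) in OPC-like clusters not led by cell-cycle genes and 0.12 (−0.01 to 0.25) in those led by them. In mural-like cells, where the pericytes are, Cspg4 stood at 165 and 167 CPM, a log2 ratio of −0.02 (−0.37 to 0.32). In astrocyte-like cells it stood at 15.4 and 10.0 CPM, and the cycling astrocyte-like cluster, at 50.2 and 30.4 CPM, stood above the other astrocyte clusters combined, at 8.06 and 5.60 CPM. The latter levels of Cspg4 were near those of 6.45 and 3.84 CPM in erythroid-like cells and are read as background. Cspg4 was also higher in SMA in microglia-like cells, at 8.82 and 5.11 CPM (0.79, 0.17 to 1.43), and in the erythroid-like background the log2 ratio was 0.75 (−0.05 to 1.52), beside 0.62 (0.24 to 1.00) over all astrocyte-like cells.

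Vcan in the glia was close between libraries in the precursors and lower in SMA in astrocyte-like and oligodendrocyte-like cells. It stood at 156 and 144 CPM in OPC-like cells (0.12, 0.02 to 0.22), at 159 and 166 CPM in COP-like cells (−0.06, −0.26 to 0.13), at 72.1 and 95.7 CPM in astrocyte-like cells (−0.41, −0.55 to −0.26) and at 52.3 and 88.6 CPM in oligodendrocyte-like cells (−0.76, −1.10 to −0.43). In the Mog cluster Vcan had 14 UMIs in SMA and 10 in Con, so it was almost gone from myelinating cells in either library. The median log2 ratio of the 5 chondroitin sulphate genes was 0.05 in OPC-like, −0.06 in COP-like and −0.26 in astrocyte-like cells, where that of all genes with 100 UMIs was −0.01, 0.04 and −0.06.

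**Figure D5:**
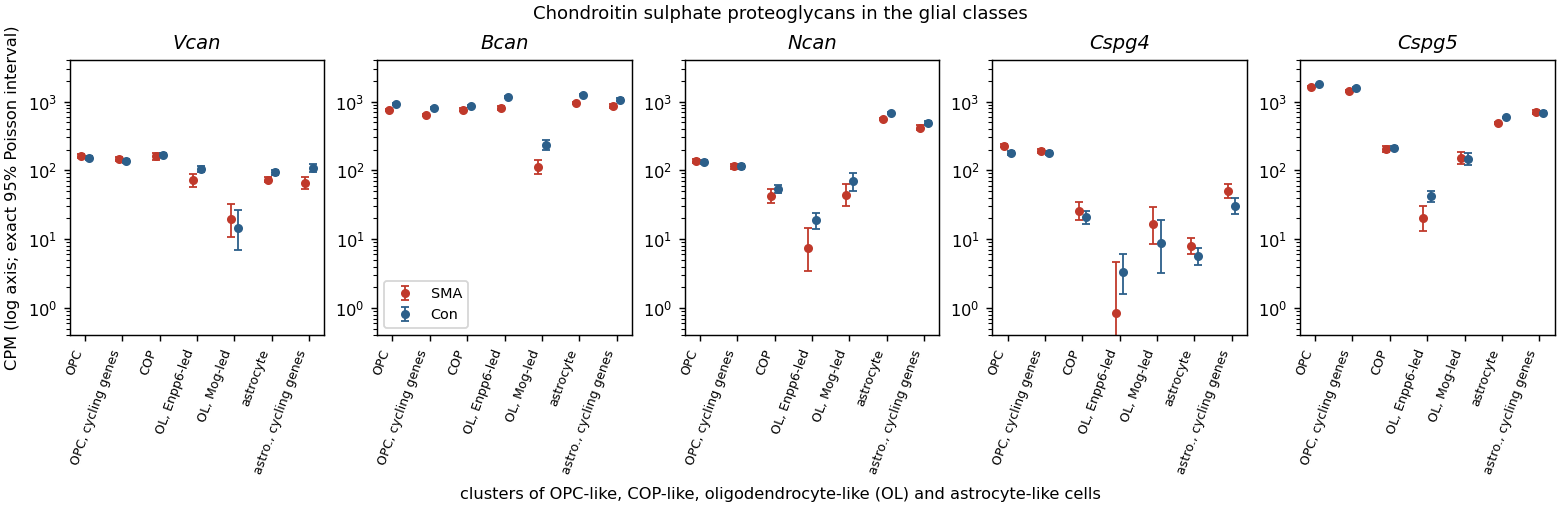
Level in CPM on a log axis of Vcan, Bcan, Ncan, Cspg4 and Cspg5 in OPC-like, COP-like, oligodendrocyte-like (OL) and astrocyte-like clusters, red for SMA and blue for Con, with exact 95% Poisson intervals. Cspg4 and Cspg5 stand highest in the OPC-like clusters, Bcan stays near its precursor level into the Enpp6-led cluster and then drops to 113 CPM in SMA and 234 CPM in Con in the Mog-led cluster, and Ncan stands highest in the astrocyte-like clusters.

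Dcn was also found in a few neuron-like cells, a class of 43 SMA and 26 Con cells that was too small to be compared. There Dcn had 517 UMIs in 17 SMA cells, with 6 to 115 UMIs in each, and 101 UMIs in 5 Con cells, with 9 to 46 UMIs in each, and it had 0 UMIs in all the others. The level over the class was 1329 CPM (1217 to 1449) in SMA and 383 CPM (312 to 466) in Con, and the single highest cell gave 22.2% and 45.5% of it. All 22 cells with Dcn, 17 in SMA and 5 in Con, also held Pkd2l1, a channel gene known for the neurons that contact the cerebrospinal fluid, and 14 of the SMA and 5 of the Con cells held the neuropeptide gene Cartpt. Pkd2l1 was also held by 21 of the 26 SMA and 20 of the 21 Con neuron-like cells without Dcn. Col1a1, Col1a2 and Lum had no UMI in the cells with Dcn and Col3a1 had one in 1 Con cell. Their summed fibroblast markers stood at 6.16 CPM in SMA and 18.8 CPM in Con, against 11945 and 12770 CPM of neuron markers.

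The related genes of the same matrix, 74 in 7 lists, differed by 2-fold or more mainly in the fibroblast-like cells as well, where 12.6% of all genes were lower and 4.72% higher, against 1.28% and 0.915% of all pairs over the classes. Of the other leucine-rich proteoglycans, with 6 pairs of gene and class counted, Fmod (fibromodulin, a collagen-binding relative of Lum) stood at 330 CPM in SMA and 81.5 CPM in Con fibroblast-like cells. Its log2 ratio was 2.02, and it stood at 333 and 68.7 CPM without the Con-only cells. Fmod in mural-like cells stood at 21.3 and 54.3 CPM, a log2 ratio of −1.35 (−2.35 to −0.48). Prelp in fibroblast-like cells stood at 48.5 and 145 CPM, a log2 ratio of −1.58 (−2.18 to −1.04), and at 47.4 CPM in both without the Con-only cells. Fmod and Ogn both stood higher in SMA than in Con once the Con-only cells were left out, where Lum and Bgn were lower.

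Among the hyaluronan synthases, link proteins and tenascins, 14 pairs were counted, of which 2 were lower. Has1, a hyaluronan synthase, had 0 UMIs in SMA and 332 UMIs in Con fibroblast-like cells, at least 23.6-fold lower in SMA with 3 counts in place of 0. It was counted through Con alone and had 25 UMIs in Con without the Con-only cells. Tnc (tenascin C, a lectican partner) stood at 31.8 and 159 CPM in fibroblast-like cells, a log2 ratio of −2.32 (−3.06 to −1.66), and at −1.08 (−1.87 to −0.37) without the Con-only cells. Over Con cells with shared barcodes the ratio of Tnc was −0.57 (−1.39 to 0.18), an interval that includes 0. In astrocyte-like cells Tnc stood at 64.8 and 110 CPM, a log2 ratio of −0.76 (−0.91 to −0.62). Tnr (tenascin R, the partner of Bcan in nets) stood at 183 and 303 CPM in oligodendrocyte-like cells, a log2 ratio of −0.73 (−0.91 to −0.56).

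Of the other chondroitin sulphate proteoglycans, 24 pairs were counted, with Cd44 lower in fibroblast-like cells (10.0 against 92.9 CPM) and Ptprz1 higher (75.3 against 34.7 CPM), and neither passed 2-fold with 100 UMIs once the Con-only cells were left out. Over Con cells with shared barcodes Cd44 stood at 10.0 and 6.27 CPM, a log2 ratio of 0.68 (−1.09 to 2.33). Ptprz1, a receptor phosphatase with chondroitin sulphate chains, was at its highest in OPC-like cells, at 1124 CPM in SMA and 1068 CPM in Con. Of the heparan sulphate proteoglycans, 64 pairs were counted, with 3 lower and 1 higher: Gpc3 in astrocyte-like cells (5.37 against 13.5 CPM), Sdc1 and Hspg2 in fibroblast-like cells (log2 ratios −1.32 and −1.24) and Gpc3 in fibroblast-like cells (596 against 283 CPM, log2 ratio 1.07, 0.89 to 1.25). Once the Con-only cells were left out, these 3 fibroblast ratios were −0.97 for Sdc1, −0.80 for Hspg2 and 0.59 for Gpc3, none past 2-fold, while Gpc6, at 32.2 and 64.4 CPM, came to 2-fold lower. Of the proteases that cleave lecticans, 17 pairs were counted and 2 were lower, Adamts5 (13.4 against 100.4 CPM) and Adamts1 (36.8 against 101 CPM) in fibroblast-like cells. With the Con-only cells left out, Adamts1 was at −1.30 (−2.04 to −0.63), and Adamts5, at 13.5 and 26.7 CPM with 8 and 44 UMIs, no longer reached 100 UMIs. Over Con cells with shared barcodes Adamts5 stood at 13.4 and 8.36 CPM, on the other side of 0. Prelp, Cd44, Sdc1, Hspg2, Has1, Tnc, Adamts5 and Adamts1, the 8 related genes lower in fibroblast-like cells, had 0 to 44 UMIs there in SMA and were counted through Con, so their counts as lower support nothing by themselves. The same holds for Gpc3 in astrocyte-like cells, with 46 UMIs in SMA and 147 in Con. It also holds for Fmod in mural-like cells and for Gpc6 in fibroblast-like cells without the Con-only cells. Both had under 100 UMIs in SMA. Of the enzymes that build the chains, 74 pairs were counted and 1 was lower, Chst7 in endothelial-like cells (10.0 against 21.2 CPM), and of the receptors 17 pairs were counted with none past 2-fold. Chpf, which helps to lengthen the chains, was at −1.06 (−1.79 to −0.40) in fibroblast-like cells without the Con-only cells. Chst7 and Chpf had under 100 UMIs in SMA and were counted through Con as well, so their places as lower support nothing by themselves.

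The genes with the most similar pattern over the 12 classes with at least 50 cells in Con were ranked by Pearson's correlation of log2(CPM + 10), a description whose points share the same libraries. Lum was the gene most like Dcn (r = 0.995 over 12 classes in Con and 0.988 over 11 in SMA). The neuron-like class, too small to enter, is where these genes parted, with 1329 and 383 CPM of Dcn against 2.57 and 0 CPM of Lum in SMA and Con. Prrx2 was most like Bgn (0.978 and 0.944), Col13a1 most like Lum (0.999 and 0.995), Ngfr most like Ogn (0.997 and 0.899) and Pknox2 most like Vcan (0.906 and 0.787). For the glial genes they were Scrg1 for Bcan (0.976 and 0.982), Gpc5 for Ncan (0.972 and 0.951), Spry4 for Cspg4 (0.927 and 0.926) and Cdo1 for Cspg5 (0.979 and 0.968). Aspn kept its likeness least: Fmod was most like it in Con (0.995) and stood at 0.261 in SMA, where Aspn had 1 UMI and Fmod 197 UMIs in fibroblast-like cells.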

How the data were processed

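The deposited files hold raw UMI counts per gene and barcode, which the authors obtained from 10x Genomics 3′ libraries by running Cell Ranger (version 4.0.0 per the file headers; mm10 per the submitters' processing notes). Barcodes with under 200 genes, more than 4000 genes, or 10% or more mitochondrial UMIs, and a cluster with a median ribosomal share over 30%, were left out, as were SMA barcodes also listed in Con. Doublets were treated only by the upper limit of genes, and no caller was run. Counts were scaled to 10000 per cell, and 2000 variable genes, 30 components and 20 neighbours were clustered by the Louvain method at resolution 1 (igraph 0.11.9), without integration. The members and gene lists were kept out of the clustering. Clusters were named from 19 marker lists, so the classes can differ from those of the study because they were named anew. Of 31 clusters, 1108 of 15704 used cells stayed unnamed.

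UMIs were summed per class and library as CPM, with exact Poisson intervals for levels, conditional binomial intervals for ratios and Clopper-Pearson intervals for shares (scipy 1.17.1). A difference counted at 2-fold with at least 100 UMIs. Sub-clusters with under 1% SMA cells were called Con-only. The ratio step was tested on simulated data. Positions came from GENCODE M21, which matched 32158 of 32285 identifiers, and windows from RefSeq. Related genes named are those past 2-fold, at most 3 a list, or highest in a class. Members and lists were chosen with earlier results of these data known.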

Additional observations from a re-analysis of the deposited data

Results flagged for a closer look

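Dcn in neuron-like cells lay outside the compared classes and was well above the level of other classes that do not make matrix: 1329 CPM in SMA over 43 cells and 383 CPM in Con over 26 cells, against 0 UMIs in SMA and 0.854 CPM in Con erythroid-like cells. With 1 library per group the difference between SMA and Con in these cells was not tested, and 1 cell gave 45.5% of the Con UMIs.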

How the results depend on the processing

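No paired analysis was possible because each group has 1 library. For the same reason no replicate could be left out, and counting intervals do not cover differences between animals. The median log2 ratio of the leucine-rich genes in fibroblast-like cells, −1.87, was −1.18 with shared barcodes kept, −1.64 over cells of at least 5000 UMIs, −1.19 without the Con-only cells (4 genes with 100 UMIs) and −1.21 over Con cells with shared barcodes (4 genes; chosen after seeing the data). The median of the chondroitin sulphate genes in astrocyte-like cells, −0.26, was −0.20 when centred on the median gene. The count of pairs 2-fold or more higher, 2 at first (Bcan and Cspg5 in fibroblast-like cells), was 1 over cells of at least 5000 UMIs, 1 without the Con-only cells and 1 over Con cells with shared barcodes, each time Ogn in fibroblast-like cells and neither of the first pairs, and it was 4 at a minimum of 50 UMIs and 0 at 300 UMIs. Over 52 gene values and 424 recomputed values, 378 stayed within their interval, 46 moved and 0 of the called values changed sign. Aspn in fibroblast-like cells went from −7.29 to −4.98 without the Con-only cells and −1.54 (−7.04 to 1.42) over Con cells with shared barcodes. Ogn there, under 2-fold at first, took either sign: 0.17 over all cells, −0.69 with cells weighted equally, −0.25 with shared barcodes kept and 1.91 (1.51 to 2.31) over Con cells with shared barcodes.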
